A study of Mus musculus with 8 samples.

Results

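Promoter methylation was described for the genes that encode chromatin and DNA methylation regulators in GS cells, cultured mouse spermatogonia with stem cell activity. The genes were chosen by symbol, with no measured value used. They were the autosomal genes whose symbols begin with the stems of the DNMT, TET, UHRF, MBD, KDM, KMT, SETD, PRC2, HDAC, sirtuin, PRDM, SMARC, CHD, CBX, BRD, Trim28 and KAT names. The rule found 2179 promoter cytosines in 74 genes, of 203645 cytosines in 9224 genes in the whole table, and of 201165 cytosines in 9004 genes on autosomes. The same stems matched 4 genes with 66 cytosines on the X and Y chromosomes, which were left out. No promoter cytosine of a Dnmt or Tet gene or of Trim28 was in the table, so 14 of the 17 classes of the rule had members. Uhrf1bp1l and Prdm16os were taken in by their symbols, although the first is not known as a chromatin protein and the second is an antisense transcript of the Prdm16 locus.

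The GS cell lines are labelled wild type and B6, with 4 lines from offspring of natural mating (control-F1, lines 29, 37, 44 and 45) and 4 from offspring produced by intracytoplasmic sperm injection (ICSI-F1, lines 11, 17, 20 and 21). The labels give no transgene, while the study's methods take the sperm injected without prior cell culture from testes of mice with a ubiquitous Egfp transgene, and elsewhere it is called wild type. The lines were started from CD9-positive cells of adult testes. Each line gave 1 library. The question was whether sperm injection changed DNA methylation in the germline of the offspring. Reduced representation bisulfite sequencing reads fragments cut by the enzyme MspI, whose recognition site is CCGG, after bisulfite has converted unmethylated cytosines. The methylation level of a cytosine is the share of its reads that still carry a cytosine, and every difference is the ICSI-F1 mean less the control-F1 mean, in percentage points.

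Cells copy methylation patterns when UHRF1 guides the maintenance enzyme DNMT1 to newly made DNA, and some MBD proteins read the mark. Polycomb repressive complex 2, made of EZH2, EED and SUZ12, and members of the SETD, KMT and PRDM families methylate histones, though not every member does. KDM enzymes take such marks off, KAT and HDAC enzymes add and remove acetyl groups, and SMARC and CHD proteins move nucleosomes. Genes of this kind are used in most cell types, and their promoters mostly lie in CpG islands that stay unmethylated. Here 1933 of the 2179 cytosines (88.7%) lay in CpG islands, against 76.9% of all autosomal promoter cytosines.

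The sequences are shown first because almost all high levels lay in 1 sequence. The windows are from GRCm38.p6 (mm10), written 5′ to 3′ on the strand of the measured cytosine, which is the second base in capitals. The capitals mark the MspI site. They show the highest cytosine of Suz12 and Eed of PRC2, of Smarcc2, a SWI/SNF subunit, of the acetyltransferase Kat5 and of Prdm9, because each is near full methylation on its strand.
Suz12, chr11:79993003-79993043, forward strand: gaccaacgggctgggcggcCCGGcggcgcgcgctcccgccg
Eed, chr7:89981324-89981364, reverse strand: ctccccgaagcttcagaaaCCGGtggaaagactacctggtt
Smarcc2, chr10:128458937-128458977, reverse strand: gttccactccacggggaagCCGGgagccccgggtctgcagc
Kat5, chr19:5610269-5610309, forward strand: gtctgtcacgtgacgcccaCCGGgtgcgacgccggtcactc
Prdm9, chr17:15564722-15564762, reverse strand: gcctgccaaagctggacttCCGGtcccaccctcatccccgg
Each of them carries the enzyme's own site. CCGG reads the same on both strands and was searched as those letters only. It held 360 of the regulator cytosines (16.5%) and 17.1% of all autosomal promoter cytosines.

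The 360 cytosines within CCGG had mean levels of 22.9%, 20.6%, 26.5% and 25.9% for the control-F1 lines 29, 37, 44 and 45, and of 22.4%, 23.7%, 26.0% and 26.2% for the ICSI-F1 lines 11, 17, 20 and 21. The 1819 cytosines outside CCGG had 0.895%, 1.64%, 3.61% and 3.09% in the control-F1 lines and 0.778%, 1.38%, 2.87% and 2.38% in the ICSI-F1 lines. In every line the cytosines within CCGG were the higher ones, and the ranges did not meet. Of 169 regulator cytosines with a mean over 20%, 166 (98.2%) lay within CCGG. Over all autosomal promoters 83.6% of such cytosines did. The 3 exceptions among the regulators were 1 cytosine of Hdac7 and the opposite strands of a CpG of Kat8.

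**Figure D1:**
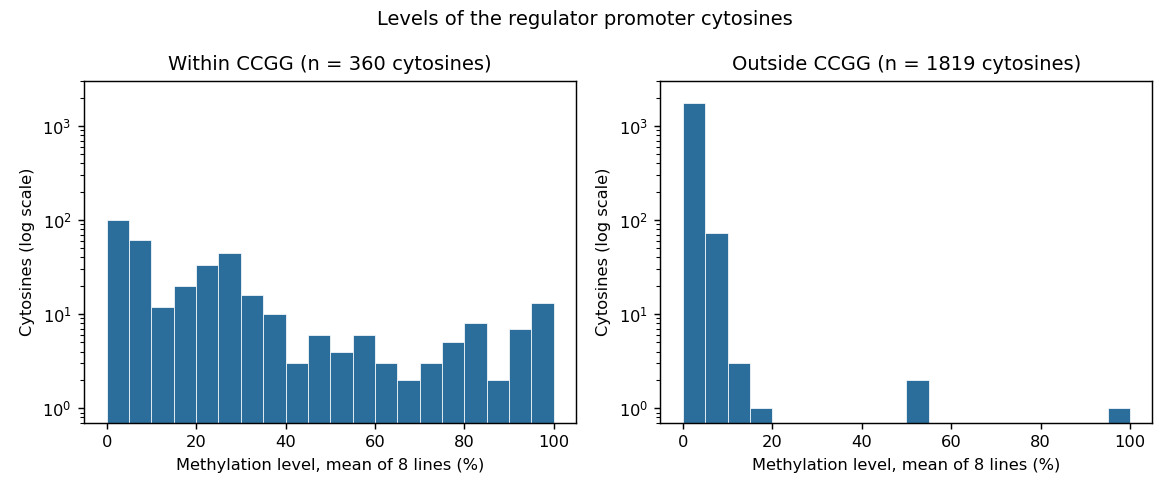
Number of regulator promoter cytosines (log scale) by methylation level in bins of 5%, the mean of 8 lines, for cytosines within CCGG (left, n = 360) and outside it (right, n = 1819). Within CCGG 53 cytosines exceed 50%, and outside it 3 do.

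High levels within CCGG were mostly limited to 1 strand. At Eed, position 89981344 on chromosome 7 (reverse strand, 361 bp from the gene start, in a CpG island and in an exon of E230029C05Rik), the control-F1 lines had 95.8%, 100%, 98.1% and 100% and the ICSI-F1 lines 93.3%, 100%, 100% and 100%. The cytosine of the same CpG on the other strand had a mean of 6.86%. All 8 lines were near full methylation on the reverse strand only. At Suz12, position 79993023 on chromosome 11 (83 bp from the start, in an island), the forward strand had 97.7% ± 4.55 (SD, n = 4) in the control-F1 group and 93.8% ± 8.84 (SD, n = 4) for the ICSI-F1 group, and the other strand 2.2% over all lines. The Smarcc2 cytosine at position 128458957 on chromosome 10 had 98.7% over all lines and 4.23% opposite. The Kat5 cytosine at position 5610289 on chromosome 19 had 97.8% and 7.25%, and the Prdm9 cytosine at position 15564742 on chromosome 17, in an island shore, 98.1% and 4.30%. In these promoters the 2 strands of the CpG were therefore far apart. The scaled reads at these cytosines were 16 to 74 per line.

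The same held across the group. Of 121 regulator CpGs within CCGG that were read on both strands, 49 had 1 strand over 50%, and 0 had both, which allows a share of up to 2.48%. The strands differed by more than 20 percentage points at 70 of the 121 (57.9%), against 51.1% of 10834 such CpGs over all autosomal promoters, where both strands exceeded 50% at 3.21%. Outside CCGG the strands differed by more than 20 points at 0 of 719 regulator CpGs, and at 716 of them both strands were at 10% or below. The limit of 2.48% covers counting error only and treats the CpGs as independent, although several can lie in the same promoter. The reads carried no molecular identifiers. End repair of MspI fragments writes new cytosines at the cut ends, and its part in these levels was not tested. A level over 80% within CCGG was found in 23 of the 74 promoters, among them Mbd6, Setdb1, Kmt2d, Kdm4b, Hdac1, Setd7 and Uhrf2.

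**Figure D2:**
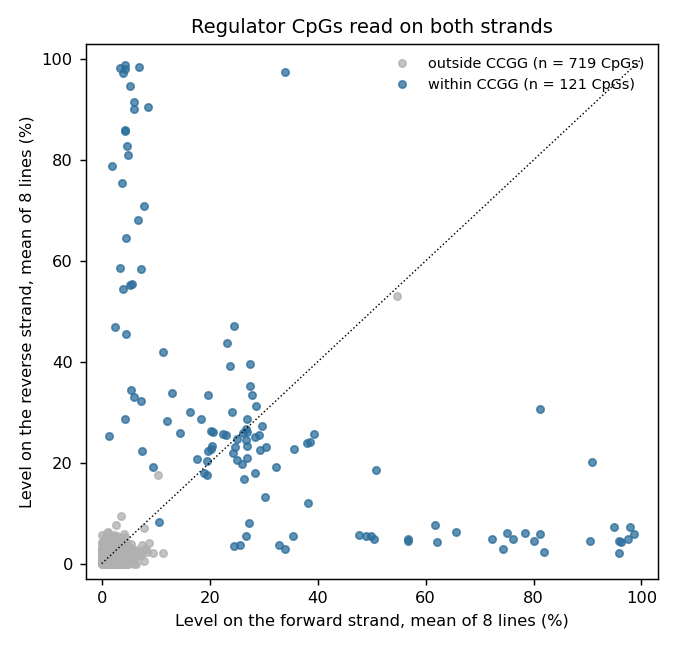
Methylation level on the forward (x axis) and reverse strand (y axis), in percent and as means of 8 lines, of regulator CpGs read on both strands, within CCGG (blue, n = 121) and outside it (grey, n = 719). The grey points lie near the dotted line of equal levels, and many blue points lie along an axis, with 49 over 50% on 1 strand.

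The libraries fall into 2 sets that differ in the sequenced reads given in the study's methods: lines 29, 37, 11 and 17 (library set 1) and lines 44, 45, 20 and 21 (library set 2). Each set holds 2 lines of each group. The mean over the regulator cytosines was 4.53%, 4.77%, 7.39% and 6.85% in the control-F1 lines and 4.35%, 5.07%, 6.68% and 6.31% in the ICSI-F1 lines, so every line of set 2 was above every line of set 1. Of the 74 promoters, 70 were higher in set 2, as were 90.0% of all autosomal promoters. Line 37 stood apart within CCGG: at the 53 regulator cytosines over 50% it had a mean of 60.8%, and the other 7 lines had 76.0% to 86.8%. Its median unscaled coverage of 41 reads was the lowest, with 56 to 82 reads in the other lines.

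The group means did not separate. The mean level over regulator cytosines was 5.89% ± 1.45 (SD, n = 4) in the control-F1 group and 5.60% ± 1.09 (SD, n = 4) for the ICSI-F1 GS cells, a difference of -0.285 that is smaller than the spread between lines. It was 0.0532 within library set 1 and -0.623 within set 2. All autosomal cytosines had 7.67% ± 1.49 and 7.53% ± 1.22 (SD, n = 4 each). At the 53 high cytosines within CCGG the difference was 4.19 points with all lines and -1.32 points without line 37. The difference was 5 points or less at 1995 regulator cytosines (91.6%) and 10 points or less at 2157 (99.0%), and of the 22 beyond 10 points, 19 lay within CCGG.

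Site by site, the study asked for a group difference over 20 percentage points and left out cytosines at which any sample changed the other way. The last condition was read here as every ICSI-F1 line lying on the same side of the control-F1 mean, since the methods do not define it further. The shares of sites that the study reported lie closer to a stricter reading, given below. The calls on the same-side reading are therefore probably looser than the study's own. On the same-side reading, the 20% rule called 2 regulator cytosines higher, both in the promoter of Kat8, and 0 lower. Over the whole table it called 0.274% of cytosines higher and 0.0506% lower, while 3.39% of promoters held a cytosine called higher and 0.553% one called lower. With the stricter reading that every ICSI-F1 line lies beyond every control-F1 line, 1 regulator cytosine was higher, that of Kat8 at position 127911848, and 0 lower, against 0.0673% and 0.00884% of all cytosines. A quasi-binomial logistic model with the dispersion moderated across cytosines, adjusted by the Benjamini-Hochberg method over the table, gave 0 of 2075 regulator cytosines that could be tested (smallest adjusted p = 0.689), and 0% of all cytosines. At an unadjusted p under 0.05 it gave 125 regulator cytosines (6.02%), 42 higher and 83 lower, against 7.06% of all cytosines tested, made up of 2.6% higher and 4.47% lower. The same model on reads summed over each promoter gave 0 of 74 promoters, 0 also at an unadjusted p under 0.05, where 2.93% of all promoters passed, 1.38% higher and 1.55% lower. With library set as a covariate, 0 cytosines and 0 promoters passed after adjustment. At an unadjusted p under 0.05 that fit gave 326 regulator cytosines (15.7%), 130 higher and 196 lower, against 15.4% of all cytosines, and 2 regulator promoters, against 6.95% of all. Limma on log2 ratios gave 0 regulator cytosines and 0 promoters after adjustment. At an unadjusted p under 0.05 limma gave 52 of 2075 regulator cytosines, 15 higher and 37 lower. Of all 196818 cytosines tested, 2344 passed this limit as higher and 4517 as lower. It was passed by 0 of 74 regulator promoters, and of all 9215 promoters by 132 as higher and 148 as lower. Among the 68 regulator promoters with at least 3 cytosines, the groups overlapped in every one. They did not overlap in 1.33% of all such promoters, 0.563% higher and 0.771% lower.

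**Figure D3:**
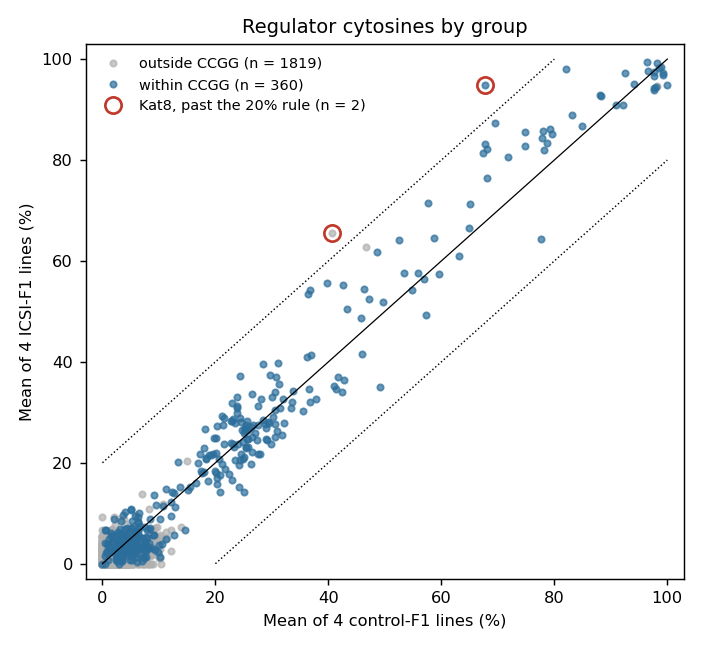
Mean methylation level (%) of the 4 control-F1 lines (x axis) and the 4 ICSI-F1 lines (y axis) at each regulator cytosine, within CCGG (blue, n = 360) and outside it (grey, n = 1819), with dotted lines 20 points from equality. The 2 circled Kat8 cytosines pass the 20% rule as read here, 1 of them with overlapping groups, and 1995 of the 2179 cytosines differ by 5 points or less.

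Kat8 encodes the histone acetyltransferase also called MOF. Its promoter (ENSMUSG00000030801, chromosome 7, positions 127911745 to 127912489, 20 cytosines outside any CpG island) had 3 CpGs at 661 to 771 bp from the gene start, shown on the forward strand with the measured CpGs in capitals because they hold both called cytosines.
Kat8 chr7:127911740-127911860: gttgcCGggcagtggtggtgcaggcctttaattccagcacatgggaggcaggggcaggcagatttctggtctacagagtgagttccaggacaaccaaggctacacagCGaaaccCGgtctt
All 6 cytosines of this stretch are soft-masked as repeats in the reference, as are 4.36% of all regulator cytosines, and the annotation places no gene there. How reads from other copies of such a repeat were handled was not tested.

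At position 127911848, on the reverse strand of the middle CpG and outside CCGG, the control-F1 lines 29, 37, 44 and 45 had 31.0%, 49.3%, 34.6% and 47.5%, and the ICSI-F1 lines 11, 17, 20 and 21 had 60.7%, 55.2%, 63.9% and 82.0%. Every ICSI-F1 line was above every control-F1 line. Such a separation by itself fixes the exact permutation p given next. That p adds no support, since the cytosine was picked for its difference. The difference was 24.8 percentage points (40.6% ± 9.15 and 65.4% ± 11.6, SD, n = 4 each; exact permutation p = 0.0286, two-sided, the smallest that 4 lines against 4 allow), and the adjusted p of the model was 0.689. It was 17.8 points within library set 1, 31.9 points within set 2 and 19.3 points without line 21, below the 20 points of the rule. On the forward strand of the same CpG, at position 127911847, the lines had 17.4%, 62.5%, 45.5% and 61.4% against 75.4%, 42.9%, 59.2% and 73.4%. Here the groups overlapped, and the difference of 16 points did not pass the rule. With the strands merged, no CpG of Kat8 passed. At the CpG farthest from the start, within CCGG, the reverse strand had 97.4% and the forward strand 34.0% over all lines. The 9 other cytosines outside CCGG, all on the reverse strand within 257 bp of the start, had means of 1.47% to 5.22%.

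The other called cytosine, position 127911854 on the forward strand, lies within CCGG. It had 65.4%, 31.0%, 89.3% and 84.9% in the control-F1 group and 84.8%, 100%, 100% and 94.8% for the ICSI-F1 group, a difference of 27.3 points (67.6% ± 26.6 and 94.9% ± 7.17, SD, n = 4 each; exact permutation p = 0.0857, two-sided). Line 37 was the lowest by far, and the groups overlapped. The difference was 15.0 points without line 37, 44.2 within library set 1 and 10.3 within set 2. Over the whole Kat8 promoter the level was 25.9% ± 5.51 in the control-F1 group against 29% ± 3.53 for the ICSI-F1 group (SD, n = 4 each; exact permutation p = 0.40), and the groups overlapped. This difference of 3.09 points depended on which cytosines were averaged. It was 11.3 points over the 8 cytosines with at least 20 reads in every line (29.2% ± 7.39 and 40.6% ± 6.28, exact permutation p = 0.0857) and 10.3 points over the 6 with at least 30 reads (exact permutation p = 0.171).

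**Figure D4:**
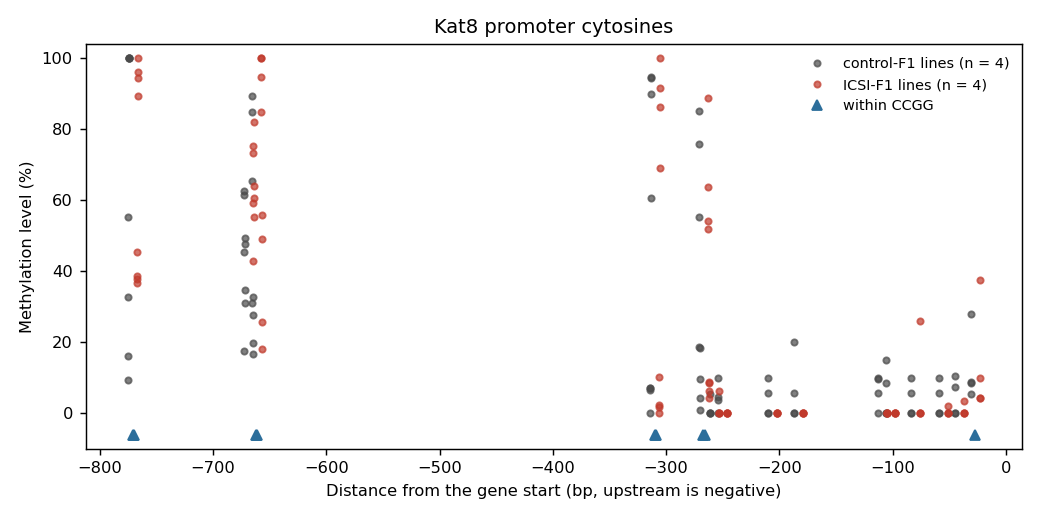
Methylation level (%) of the Kat8 promoter cytosines by distance from the gene start (bp), for each control-F1 line (grey, n = 4) and ICSI-F1 line (red, n = 4), with triangles under cytosines within CCGG. Near 668 bp upstream the ICSI-F1 lines at the reverse-strand cytosine span 55.2% to 82.0% and the control-F1 lines 31.0% to 49.3%.

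Hdac7, a class II histone deacetylase, had the highest promoter level of the group, 97.4% ± 5.2 in the control-F1 group against 96.2% ± 7.65 for the ICSI-F1 group (SD, n = 4 each), from 2 cytosines outside any island on chromosome 15. The windows show the one outside CCGG (position 97845052, CG in capitals, 550 bp from the start) and the one within it (position 97844903, 401 bp).
Hdac7 outside CCGG, chr15:97845032-97845072, forward strand: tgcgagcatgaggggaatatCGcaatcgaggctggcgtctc
Hdac7 within CCGG, chr15:97844883-97844923, forward strand: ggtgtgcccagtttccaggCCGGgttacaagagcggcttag
Outside CCGG the level was 100%, 92.5%, 100% and 100% in the control-F1 lines and 100%, 100%, 78.8% and 100% in the ICSI-F1 lines. It was high in all 8 lines and had the highest mean of the regulator cytosines outside CCGG. The opposite strand was not read. The other 5 promoters with fewer than 3 cytosines were Brd9 and Smarca5 with 2 each, and Prdm13, Prdm1 and Chd3 with 1 each. Hdac1 and Hdac2, class I deacetylases, had 2.31% and 1.61% outside CCGG.

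By class, the medians lay further apart with the cytosines within CCGG than without them. The median promoter level over 8 lines was 2.44% in the sirtuins (3 promoters), 3.69% in the CHD remodellers (6), 4.25% in the BRD proteins (4), 4.28% in the KDM demethylases (8), 4.44% in the CBX proteins (4), 4.80% in the PRDM proteins (9), 4.81% in PRC2 (3) and 5.16% in the SETD enzymes (9). It was 6.04% in the SMARC subunits (8), 7.43% in the KMT enzymes (6), 8.87% in the UHRF genes (3), 9.03% in the HDACs (3), 9.84% in the KATs (5) and 13.1% in the MBD proteins (3). Outside CCGG these medians ran only from 1.21% in the BRD proteins to 2.80% in the KATs. All 74 promoters had a median of 5.05%, and all 9004 autosomal promoters 5.67%. Outside CCGG, 65 of 68 regulator promoters were under 5%, against 85.6% of all, and 1 of 68 exceeded 20%, against 9.27%. These shares are not matched for CpG islands, which held more of the regulator cytosines. For island cytosines outside CCGG, the regulators had means of 2.12% (control-F1) and 1.63% (ICSI-F1). All autosomal promoters had 2.28% and 1.89% there, so the low level was not particular to the regulators.

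The promoters next in rank consisted of CCGG cytosines alone. Chd9, a nucleosome remodeller, had 50.4%, 31.2%, 60.7% and 57.3% in the control-F1 group and 54.2%, 45.4%, 62.9% and 57.3% for the ICSI-F1 group, over 3 cytosines. Smarce1, a subunit of the SWI/SNF remodelling complex, had 30.6%, 21.7%, 41.5% and 45.7% against 29.6%, 33.9%, 41.4% and 44.6%, over 9. Kmt5a, which adds a methyl group to histone H4, had 24.3%, 16.5%, 36.6% and 32.8% against 31.4%, 31.3%, 41.1% and 28.2%, over 3. Line 37 was the lowest in each. Their differences were 5.04, 2.52 and 5.46 points, and -1.19, -1.86 and 1.79 points without line 37.

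**Figure D5:**
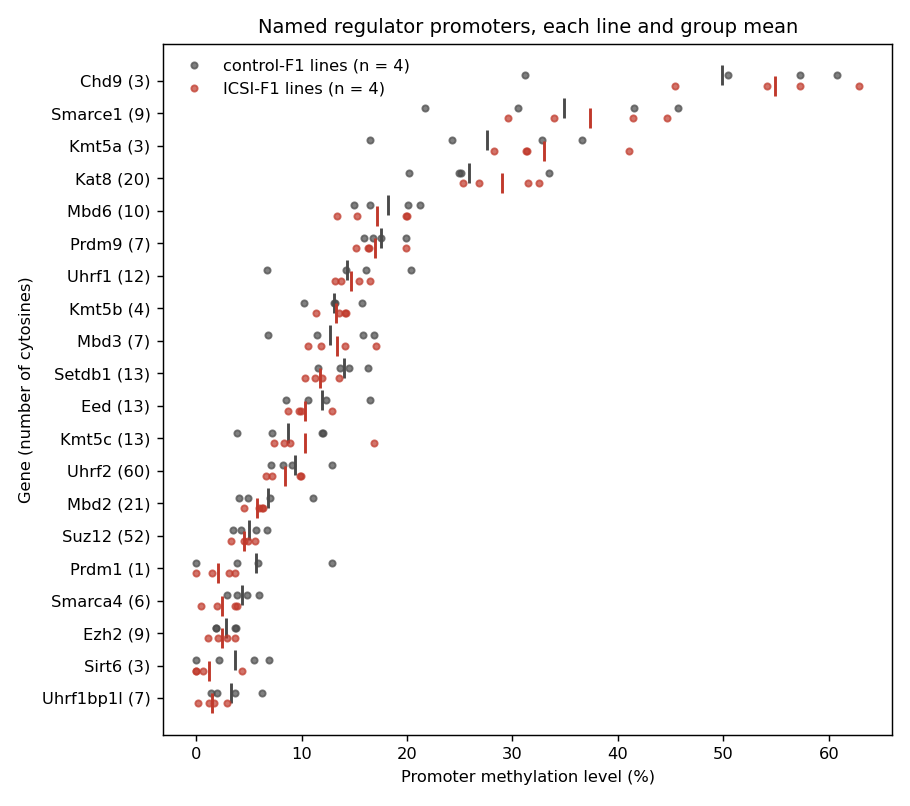
Promoter methylation level (%, mean over cytosines) of 20 named regulator genes in each control-F1 line (grey, n = 4) and ICSI-F1 line (red, n = 4), with bars at the group means and the number of cytosines in brackets. In every promoter with at least 3 cytosines the groups overlap, and Chd9, Smarce1, Kmt5a and Kat8 are the highest.

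Among the UHRF and MBD genes, Uhrf1 had 14.3% ± 5.70 in the control-F1 group against 14.7% ± 1.54 for the ICSI-F1 group (SD, n = 4 each). Its lowest value was the 6.69% of line 37. Outside CCGG it had 3.33% ± 2.19 and 1.61% ± 1.63. Uhrf2, its paralog, had 9.33% ± 2.50 and 8.40% ± 1.75. Mbd2 had 6.78% ± 3.15 and 5.76% ± 0.816, and Mbd3 12.7% ± 4.59 and 13.4% ± 2.83. Mbd6 had 18.2% ± 2.94 and 17.1% ± 3.34. Outside CCGG the means over all lines were 2.70% (Uhrf2), 2.55% (Mbd2), 1.74% (Mbd3) and 1.42% (Mbd6). In all of these genes the differences were within the spread between lines.

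Of PRC2, Ezh2, the catalytic subunit, had 2.83% ± 1.08 in the control-F1 group against 2.47% ± 1.11 for the ICSI-F1 group (SD, n = 4 each). Suz12 had 5.05% ± 1.42 and 4.56% ± 0.939, and Eed 12% ± 3.40 and 10.3% ± 1.80. Without CCGG cytosines, Suz12 was at 1.80% and Eed at 3.49% over all lines. Of the histone methyltransferases, Setdb1, which silences endogenous retroviruses, had 11.5%, 14.5%, 13.7% and 16.3% in the control-F1 group and 10.3%, 11.3%, 13.6% and 11.9% for the ICSI-F1 group, a difference of -2.23 points (exact permutation p = 0.114). The groups overlapped. Prdm9, which marks the sites of meiotic recombination, had 17.5% ± 1.73 and 17% ± 2.06. Prdm1, a repressor needed for germ cell formation, had 1 cytosine, at 5.66% ± 5.41 and 2.07% ± 1.66. Kmt5b had 13.1% ± 2.25 and 13.3% ± 1.36, and Kmt5c, which like it methylates histone H4, 8.74% ± 3.96 and 10.4% ± 4.35. Outside CCGG, Setdb1 was at 2.91%, Prdm9 at 3.22%, Kmt5b at 1.79% and Kmt5c at 3.39% over all lines.

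Of the largest differences that remain, the values lower in the ICSI-F1 group (mean ± SD, n = 4 each, control-F1 first) were 3.65% ± 3.14 and 1.24% ± 2.06 in Sirt6, 4.37% ± 1.31 and 2.48% ± 1.59 in Smarca4, the motor of SWI/SNF, and 3.33% ± 2.17 and 1.51% ± 1.13 in Uhrf1bp1l. No exact p of a regulator promoter was below 0.114, and after adjustment over all promoters no value of this test could pass. Of the 74 promoters, 26 (35.1%) were higher in the ICSI-F1 group, against 44.5% of all autosomal promoters. The median difference of a class was above 0 in 4 of the 14 classes, in 10 without line 44 and in 0 without line 20, so its direction turned with single lines. In Kmt2b, a methyltransferase gene of the MLL family, 6 forward-strand cytosines at 723 to 835 bp from the start, in an island and outside CCGG, had 25.6% to 31.8% in control-F1 line 44. In control-F1 line 29 they had 0% to 3.19%, and the opposite strand had means of 2.05% to 4.07%. The raised values were mainly those of line 44, with 25.8% in line 20 and 30.4% in line 21 at 1 cytosine each.

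Other chromatin genes outside the rule had similarly low median levels outside CCGG. Of 18 promoters of other histone methylation genes, 17 had cytosines outside CCGG, with a median of 2.2% there. The medians outside CCGG were 2.08% for 16 promoters of other Polycomb genes, 1.89% for 26 of other acetylation and remodelling genes, 2.09% for 8 of other DNA methylation and imprint genes and 2.23% for 7 of piRNA pathway genes. No promoter of these lists passed the promoter model. By the 20% rule 5 of the 2895 cytosines of these lists (0.173%) were higher, against 0.274% of the whole table, and 0 were lower. Of the 5, 4 were in Nsd1, a histone methyltransferase gene with 44.6% ± 7.15 in the control-F1 group against 62.6% ± 3.37 for the ICSI-F1 group (SD, n = 4 each). This is a difference of 18.0 points, and outside CCGG Nsd1 had 39.5% ± 6.45 and 55.4% ± 6.03. Nsd1 was picked from these lists for its called cytosines, so its difference adds no support. Differences ran from -3.59 to 5.46 points over the regulator promoters and from -27.8 to 42.5 points over all autosomal promoters. Promoter methylation does not give expression, so the cell type was not read from it. With CCGG included, the germ cell markers (9 of 20 listed genes) had a median of 7.88% and the fibroblast markers (3 of 12) 19.9%. Outside CCGG these medians were 2.62% and 6.41%. The fibroblast markers had 10 cytosines in all, of which 1, in Col1a2, was called higher.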

How the data were processed

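RRBS libraries (Zymo-Seq kit) of 8 GS cell lines were analysed from the deposited promoter table. Per the methods and the submitters' processing notes, the authors trimmed reads with Trim Galore 0.5.0 in its RRBS and non-directional modes, aligned them to mm10 with Bismark 0.20.0 and counted reads per cytosine with methylKit (1.16.0 in the notes; the methods name another version). The deposited values are reads scaled between lines and rounded, a score and not raw counts, with the strands kept apart and at least 10 reads in every line. The scaling could be undone for 100% of coverage values, and the median unscaled coverage was 41 to 82 reads.

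Levels were methylated over all scaled reads, and a promoter level was the unweighted mean over its cytosines. MspI sites and soft-masked bases were read from GRCm38.p6, and genes from GENCODE M21. Tests were the 20% rule, quasi-binomial models with dispersion moderated by limma 3.58.1 (R 4.3.3) and exact permutation over 70 arrangements of lines, adjusted by the Benjamini-Hochberg method over the table. Because the values are scaled reads, the model was also run with scaling undone. Tested on simulated data, the site model recovered 24% of 50 cytosines raised by 20 points and 98% of 50 raised by 40 points. Limma recovered 0% and 22% of them. The site model also made 4 false calls, and 8.37% of unchanged simulated cytosines had an unadjusted p under 0.05. That share is above the 6.02% of regulator cytosines that passed this limit in the data. The simulation gave all cytosines the same dispersion, taken from those over 5%, so these shares are not directly comparable. The raised cytosines had at least 30 reads in every line. Recovery at the levels and read depths of the regulator cytosines was not tested separately. The line numbers are among those that the study's supplement gives to single offspring, so each line is taken as 1 mouse.

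The genes named were the DNA methylation, MBD, PRC2, Setdb1, Trim28, Prdm1, Prdm9 and Prdm14 genes in the table, the 10 highest promoters, the 5 largest increases and the 5 largest decreases, the 5 most variable, and any called, of which 1 gene is not reported here. Promoters with under 3 cytosines were outside the rankings. Hdac7, Hdac1, Hdac2, Kmt2b, Kmt2d, Kdm4b, Setd7, Prdm6, Nsd1, Col1a2 and the windows shown were chosen after their values were seen. The members and gene lists were chosen with earlier results of these data known. Alternatives were coverage minimums, merged strands, library sets, left-out lines, other dispersion and thresholds, and, chosen after seeing the data, CCGG cytosines left out or alone.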

Additional observations from a re-analysis of the deposited data

Results flagged for a closer look

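In 52 sets of 4 lines, 2 values lay far from the other 3 of their group, a share that chance alone gives in about 1 of 20 sets. Both were of ICSI-F1 line 20. The Kmt5c promoter was at 16.8% in that line and at 7.40% to 8.91% in the other ICSI-F1 lines. The Sirt6 promoter was at 4.30% in it and at 0% to 0.654% in the others.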

How the results depend on the processing

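No paired analysis was possible because the groups share no replicate numbers. The counts of regulator cytosines and promoters at a false discovery rate of 0.05 stayed at 0 under all alternatives run. The mean difference ran from -0.736 to 0.216 points when a line was left out. Cytosines called higher by the 20% rule numbered 2, and 1 with at least 30 reads, 0 with merged strands, 13 in library set 1, 10 at 10 points, 0 at 30 points, and 1 each when all ICSI-F1 lines had to exceed all control-F1 lines, without CCGG and in CCGG alone. Leaving out a line gave 1 (line 21) to 8 (line 11) higher and 0 to 1 (lines 37 and 21) lower. Cytosines called lower numbered 1 in set 1, 2 in set 2 and 2 at 10 points. Promoters with no overlap between groups numbered 23 of 68 in set 1 and 14 of 68 in set 2 (2 lines against 2), where 31.2% and 33.9% of all promoters did not overlap, 1 of 61 without CCGG (Prdm6; 1.29% of all), and 0 to 2 of 68 with a line left out (2.25% to 4.34% of all). Classes with a median difference above 0 numbered 8 in set 1 and in CCGG alone, and 0 to 10 with a line left out. Called cytosines in the other chromatin genes numbered 22 in set 1, 14 in set 2, 1 without CCGG, 26 at 10 points, 1 at 30 points, 2 with full separation and 2 (line 37) to 12 (line 44) with a line left out. For library sets, left-out lines and other thresholds, the shares of called cytosines over the whole table were not computed. Calls can rise over the whole table in such settings, so these counts are not a result about the regulators or the other chromatin genes. The causes were not tested. Depth limits small differences: a regulator cytosine had as few as 10 scaled reads in a line.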
